A study of Homo sapiens with 9 samples.

Results

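The messenger RNAs of 9 aldehyde dehydrogenases (ALDH) were read across a parental human mammary epithelial line and its derivatives transformed with BMP2 and IL6. The genes were ALDH1A1, ALDH1A2, ALDH1A3, ALDH1B1, ALDH2, ALDH3A1, ALDH3B1, ALDH3B2 and ALDH7A1. They were taken by symbol as enzymes that can stand behind the ALDH activity assay of mammary stem cells, and made up 9 of the 60199 symbols in the count table, of which 29997 had at least 1 count in any library. Poly-A RNA was sequenced from 3 cultures each of 3 lines. CT was the parental MCF10A line, a nonmalignant epithelial line with a CDKN2A deletion and MYC amplification that every group carried. It was grown without added BMP2 or IL6. The paper gives the MCF10A medium with horse serum, insulin, hydrocortisone, cholera toxin and EGF. MC26 came from unsorted MCF10A cells under long exposure to BMP2, a bone morphogenetic protein, and IL6, an inflammatory cytokine. M1B26 came from MCF10A cells that a sort had selected for BMPR1B, a receptor of BMP2. These were treated with the same factors and expanded from 3 soft-agar clones. Both derived lines were still grown with the factors when RNA was taken, so the lasting state of a line and its current exposure cannot be told apart. The sort and the cloning likewise cannot be told apart in any difference between M1B26 and the other lines. The 3 libraries of a line were separate cultures of that line, so p-values measure the spread between cultures and not between independent transformations.

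Aldehyde dehydrogenases oxidize aldehydes to carboxylic acids with NAD or NADP as the electron acceptor. The ALDH1A enzymes oxidize retinal to retinoic acid, which enters the nucleus and acts through the RAR and RXR receptors, while other members clear aldehydes from ethanol, lipid peroxidation and amino acid breakdown. In the mammary gland, cells with high ALDH activity in a fluorescent substrate assay have been used as a stem and progenitor fraction, and ALDH1A1 and ALDH1A3 are the isoforms most often named behind that signal. The sequencing read RNA and not enzyme activity. In bulk RNA, fewer cells that carry a transcript and less of it per cell cannot be told apart.

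Total counts ranged from 21425118 to 80076597 per library, and the smallest and largest libraries were both CT. No count was found for CDKN2A in any of the 9 libraries. All 5 basal epithelial markers (KRT5, KRT14, KRT17, TP63 and ITGA6) exceeded 1 CPM (counts scaled to a library of 1000000, with TMM factors), with summed levels of 6554 to 8200 in CT, 7757 to 9770 in MC26 and 6460 to 6759 CPM in M1B26. Of 5 luminal markers 4 did so, KRT19 staying under 0.29 CPM, with sums of 969.4 to 1111, 681.6 to 715.4 and 944.4 to 1012 CPM in the same order. Markers of these lists differed between the lines in the test described below. Of all genes tested, 38.7% were called in MC26 against CT, 48.9% in M1B26 against CT and 39.5% in M1B26 against MC26. Basal markers were higher in MC26 than CT for 3 of 5, and luminal markers were lower for 4 of 4 tested. In M1B26 against CT, 3 basal markers were higher and 1 lower and 2 luminal markers were lower, and in M1B26 against MC26, 3 basal markers were lower and 3 luminal markers higher. Their part in the results on aldehyde dehydrogenases was not tested. Fibroblast marker sums ran from 37.43 to 37.76 in CT, 17.06 to 56.82 in MC26 and 28.47 to 39.72 CPM in M1B26, mostly DCN and COL1A1, with COL1A2 and COL3A1 at 3 counts each over all libraries. The sums hide changes of single genes. Of 4 fibroblast markers tested, 2 were called higher and 0 lower in M1B26 against CT and likewise against MC26, COL1A1 among them (log2 0.98 and 0.66). In MC26 against CT 0 were called. COL1A1 lies on chromosome 17, as do KRT14 and KRT17 of the basal list. The tested genes of that chromosome had a median log2 difference of 0.48 in M1B26 against CT and 0.48 against MC26. The part of that shift in these markers was not tested. Of the endothelial list, PECAM1 was detected while VWF and CDH5 were near 0 (sums of 4.849 to 5.316, 0.09947 to 0.5412 and 0.497 to 1.736 CPM). Of the leukocyte list, CD14 was detected while CD3E had no count and PTPRC had 5 (sums of 6.901 to 11.0, 9.723 to 17.76 and 33.85 to 47.87 CPM). The adipocyte list stayed at or under 0.2074 CPM, with no count for ADIPOQ.

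Expression was compared with the quasi-likelihood test of edgeR on the raw counts, with p-values adjusted by Benjamini-Hochberg over all 15717 genes that passed the filter on low counts. A gene was called at an adjusted p under 0.05. Of the 9 aldehyde dehydrogenases 7 entered the test, since ALDH2 and ALDH3B2 did not pass. ALDH1A1 passed through MC26 and M1B26 alone and ALDH1A2 through M1B26 and 1 MC26 library, so these genes could enter the test only by being higher there than in CT.

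Between MC26 and CT, 5 of the 7 were called, ALDH1A1 and ALDH1A2 higher and ALDH3A1, ALDH3B1 and ALDH7A1 lower. Of all genes tested in MC26 against CT, 38.7% were called, 18.8% higher and 19.9% lower. Between M1B26 and CT, 6 were called, with ALDH1A1, ALDH1A2, ALDH1A3 and ALDH1B1 higher and ALDH3A1 and ALDH3B1 lower. The share over all genes was 48.9%, with 25.2% higher and 23.7% lower. Between M1B26 and MC26, 4 were called and all were higher in M1B26 (ALDH1A1, ALDH1A3, ALDH1B1 and ALDH3A1), beside 39.5% of all genes, 21.2% higher and 18.4% lower. The count of 0 lower genes in that comparison was 0 also at an unadjusted p under 0.05 in edgeR and 0 in DESeq2. Called genes were more frequent among the 7 than over all genes, but 2 of them had entered the test by being higher in the derived lines, and the list as a whole was not tested. Among all called genes the share that was higher depended on the scaling, at 48.46% in MC26 against CT and 51.5% in M1B26 against CT with TMM factors and 35.75% and 39.55% with total counts alone. The median log2 fold change of the 7 genes was -0.25, 0.37 and 0.92 in the order above, and 0.00 over all genes in each comparison. These medians include the 2 genes that had entered that way, and 0.92 is the value of ALDH1A2, which was not called there. Without ALDH1A1 and ALDH1A2 the middle values were those of ALDH1A3 (-0.66), ALDH7A1 (-0.12) and ALDH1B1 (0.37) in the same order. Placing ALDH1A1 at its lower bound against CT could not change a median of the 7 genes, since it remained the highest value.

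**Figure D1:**
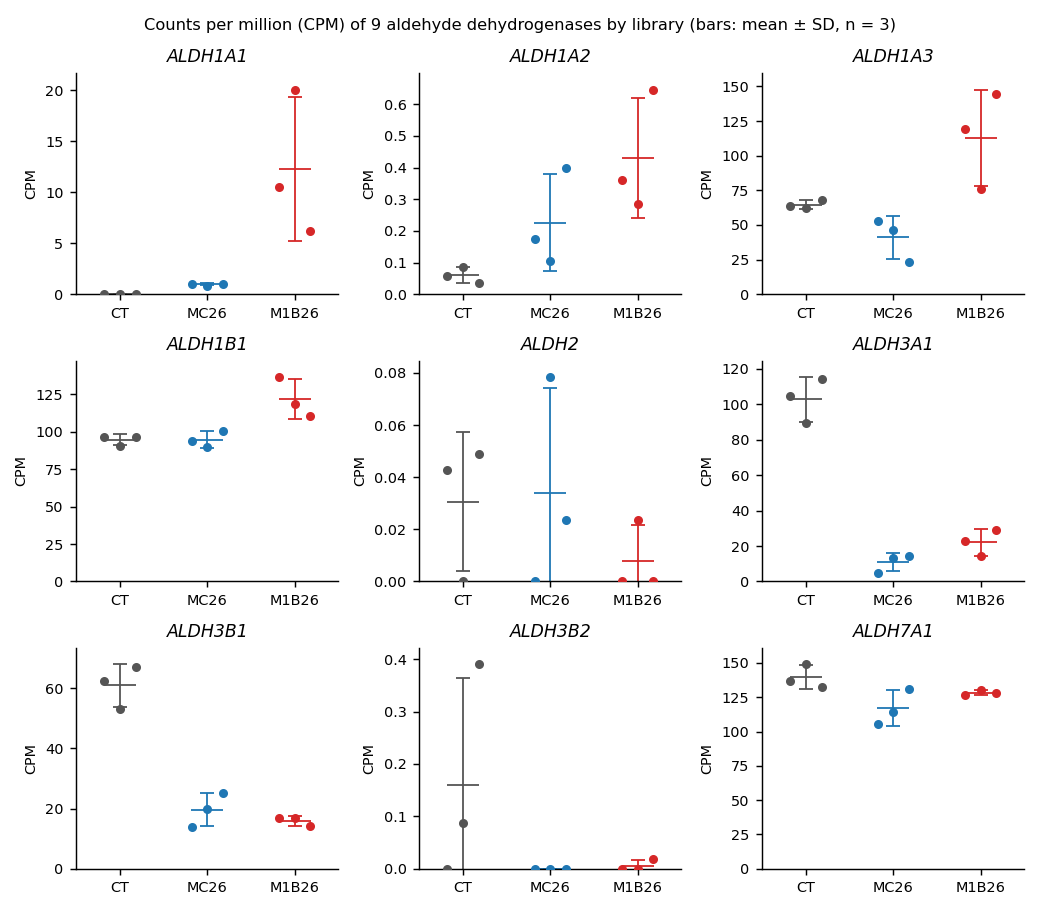
CPM (vertical axis, linear, from 0, scaled per gene) of the 9 aldehyde dehydrogenases in each library (points) of CT, MC26 and M1B26, with the mean and SD of 3 libraries (bars, clipped at 0). ALDH1A1 was at 0 in the 3 CT libraries and at 6.187 to 20.07 CPM in M1B26, ALDH3A1 and ALDH3B1 were highest in CT, and ALDH2 and ALDH3B2 stayed under 0.4 CPM throughout.

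ALDH1A1, the cytosolic retinal dehydrogenase on chromosome 9, showed the widest contrast of the 9 genes. No read was counted in the 3 CT libraries. MC26 had 41, 32 and 43 counts (1.02, 0.8368 and 1.012 CPM) and M1B26 had 468, 848 and 335 (10.55, 20.07 and 6.187 CPM). The 3 lines did not overlap, and within M1B26 the second library stood at over 3 times the third. A count of 0 in CT still allows 3 counts per library, a mean of 0.07017 CPM that covers counting error only. Measured from that limit, the mean of ALDH1A1 was at least 13.6-fold higher in MC26 (0.956 ± 0.103 CPM, SD, n = 3; adjusted p = 9.03e-04, edgeR) and at least 174.8-fold higher in M1B26 (12.27 ± 7.10 CPM; adjusted p = 9.34e-06). These bounds compare means and leave out the spread between libraries, the lowest of M1B26 being at 6.187 CPM. The adjusted p-values belong to the fitted differences and not to the bounds. M1B26 exceeded MC26 by 3.67 on the log2 scale (SE 0.42, adjusted p = 2.33e-04), a 12.7-fold difference. None of its 31-base words occurs in another annotated gene.

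The stretches upstream of ALDH1A1 and of ALDH3B1, a gene lower in both derived lines, are shown because they were among the 4 members with the largest changes of those called in at least 2 comparisons (with ALDH3A1 and ALDH1A2), and that of ALDH1A3 because it was the isoform of the mammary assay that CT did carry. ALDH1A3 was added as this contrast after its values were seen. The windows of ALDH1A2 lay mostly within its exons. Those of ALDH1A1 and ALDH1A3 lay before a RefSeq start but inside the GENCODE spans of these genes, which begin further upstream. All are RefSeq sequences of the GRCh38.p14 build, written 5′ to 3′ on the strand of the gene and without annotated exon bases, at chr9:72953057-72953303 on the minus strand for ALDH1A1 and on the plus strand at chr15:100879581-100879812 for ALDH1A3 and chr11:68008297-68008546 for ALDH3B1. Capitals mark the letters CCAAT and GGGCGG (or their reverse complements), the CCAAT box and the GC box.
ALDH1A1: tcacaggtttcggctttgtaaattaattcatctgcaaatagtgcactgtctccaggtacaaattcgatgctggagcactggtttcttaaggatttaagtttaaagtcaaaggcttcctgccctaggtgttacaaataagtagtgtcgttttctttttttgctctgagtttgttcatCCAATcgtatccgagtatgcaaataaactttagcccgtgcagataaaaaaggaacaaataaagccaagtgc
ALDH1A3: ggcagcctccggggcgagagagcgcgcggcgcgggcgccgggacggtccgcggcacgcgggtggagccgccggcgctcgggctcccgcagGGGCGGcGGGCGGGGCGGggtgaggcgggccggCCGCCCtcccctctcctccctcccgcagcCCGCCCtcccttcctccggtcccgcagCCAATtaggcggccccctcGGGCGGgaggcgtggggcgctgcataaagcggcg
ALDH3B1: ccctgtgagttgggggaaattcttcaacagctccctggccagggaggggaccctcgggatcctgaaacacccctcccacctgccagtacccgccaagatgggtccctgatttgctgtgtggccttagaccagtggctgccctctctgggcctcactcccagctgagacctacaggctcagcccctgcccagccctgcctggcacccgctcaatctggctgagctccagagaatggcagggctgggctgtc

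The sequences differ first in base composition. Over the 250 bases before each RefSeq start, ALDH1A1 had 38.4% G and C and 6 CpG pairs, ALDH1A3 had 82.4% and 38, and ALDH3B1 had 63.6% and 3. Over all 35116 RefSeq promoter windows the median was 58% with 11 CpG pairs, and 10.1% of windows had less G and C than ALDH1A1, 63.4% less than ALDH3B1 and 98.6% less than ALDH1A3. The letters CCAAT were found 74 to 70 bases before the start in ALDH1A1 and 71 to 67 in ALDH1A3, and in 32.0% of all windows on either strand. The letters GGGCGG occurred 6 times in ALDH1A3, a pair of them overlapping, and were not found in ALDH1A1 or in this window of ALDH3B1, beside 42.6% of all windows. On both strands TATAAA (10.7% of windows), AGGTCA (a nuclear receptor motif, 12.1%), TTCNNNGAA (STAT, 6.57%), GTCTAGAC (SMAD, 0.182%) and TGACNNNGC (antioxidant response element, 10.9%) were found in none of the 3 windows, and CCAAT was not found in that of ALDH3B1. A second RefSeq window of ALDH3B1, within an intron, held GGGCGG at 2 places on the opposite strand. These are matches of letters, not binding sites, and an absent match says only that the letters are not in the window. Of the 9 genes 6 had an entry in the promoter table, the 3 shown and ALDH1A2, ALDH1B1 and ALDH7A1.

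ALDH1A2, the retinal dehydrogenase best known from the embryo, was near the limit of detection. CT held 4, 2 and 3 counts, MC26 7, 4 and 17, and M1B26 16, 12 and 35, or mean levels of 0.06037 ± 0.0255, 0.2262 ± 0.154 and 0.4304 ± 0.191 CPM (SD, n = 3). The CT libraries lay below all others, and MC26 and M1B26 overlapped. The log2 difference was 2.08 in MC26 against CT (SE 0.65, adjusted p = 0.0258, edgeR) and 3.01 in M1B26 against CT (SE 0.58, adjusted p = 0.00148). M1B26 and MC26 did not differ past the threshold (0.92, 95% interval -0.12 to 1.97, adjusted p = 0.143). The call in MC26 was lost without the third MC26 library (adjusted p = 0.133), and also without the first or the third CT library (0.0700 and 0.0987), while without that MC26 library ALDH1A2 passed the threshold in M1B26 against MC26 (log2 1.63, adjusted p = 0.0279). AQP9 on the opposite strand overlaps 4.36% of the exon bases of ALDH1A2, and the strand setting of the counting is not given in the sources used here. AQP9 had 3, 0 and 0 counts in CT, 259, 123 and 66 in MC26 and 44, 45 and 69 in M1B26. Its part in the ALDH1A2 counts was not tested.

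ALDH1A3, the third retinal dehydrogenase, was expressed in every library and followed another order. Levels were 63.43, 62.46 and 68.36 in CT, 53.04, 46.42 and 23.46 in MC26, and 119.1, 75.72 and 144.3 CPM in M1B26. No library of one line overlapped another, with MC26 lowest and M1B26 highest. M1B26 exceeded MC26 by 1.47 on the log2 scale (SE 0.27, adjusted p = 0.00187, edgeR) and CT by 0.80 (SE 0.27, adjusted p = 0.0286). MC26 lay below CT by a difference that did not pass the threshold (log2 -0.66, 95% interval -1.26 to -0.06, adjusted p = 0.0760). The excess over CT lost its call without any 1 of the 3 CT libraries or without the first or the third M1B26 library (adjusted p 0.0534 to 0.115). The deficit of MC26 passed the threshold without the first MC26 library (log2 -0.89, adjusted p = 0.0405) and with total counts (0.0465). It also passed with no filter (2.55e-05), where the log2 difference was again -0.66, so the p-value had changed and not the difference. An antisense transcript, ALDH1A3-AS1, covers 32.1% of the exon bases of ALDH1A3, and reads of the pair cannot be told apart without a stated strand setting.

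The spread inside M1B26 was wide for these enzymes, and ALDH1A1 ran against ALDH1A2 and ALDH1A3 over its libraries. The second M1B26 library had the highest ALDH1A1 (20.07 CPM) and the lowest ALDH1A3 (75.72 CPM) and ALDH1A2 (0.284 CPM), and the third had the lowest ALDH1A1 and the highest ALDH1A3 and ALDH1A2. Per kilobase of merged exons, ALDH1A1 reached 8.06% to 49.8% of the ALDH1A3 level in M1B26, 3.39% to 8.10% in MC26 and 0% in CT. ALDH1A3 thus remained the more abundant retinal dehydrogenase in all 9 libraries.

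ALDH1B1 and ALDH2 encode mitochondrial enzymes with acetaldehyde among their substrates. ALDH1B1 stood at 96.66, 90.33 and 96.78 in CT, 93.82, 89.54 and 100.6 in MC26, and 136.7, 118.9 and 110.7 CPM in M1B26. All M1B26 libraries lay above the other 6, and CT and MC26 overlapped. The excess of M1B26 was 0.37 on the log2 scale over CT (SE 0.08, adjusted p = 0.00398, edgeR) and 0.37 over MC26 (SE 0.08, adjusted p = 0.00565), a 1.29-fold difference. MC26 against CT gave 0.00 with a 95% interval of -0.18 to 0.18, the sign of which changed with the scaling. ALDH2, the main enzyme of ethanol-derived acetaldehyde, had 3, 0 and 4 counts in CT, 0, 3 and 1 in MC26 and 0, 1 and 0 in M1B26. No difference was detectable at this depth, and 22.7% of its 31-base words also occur in other annotated genes.

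The ALDH3 enzymes act on medium-chain and longer aldehydes such as those from lipid peroxidation. ALDH3A1, a cytosolic enzyme abundant in the cornea, stood at 104.9, 89.41 and 114.4 in CT, 4.973, 13.07 and 14.54 in MC26, and 23.08, 14.13 and 28.88 CPM in M1B26. Every CT library was at least 3 times any other, and the highest MC26 library lay just above the lowest of M1B26. ALDH3A1 fell by 3.25 on the log2 scale in MC26 (9.48-fold lower, SE 0.34, adjusted p = 3.96e-05, edgeR) and by 2.22 in M1B26 (4.66-fold lower, SE 0.32, adjusted p = 2.33e-04). M1B26 was higher than MC26 by 1.02 (SE 0.33, adjusted p = 0.0304), a call lost without the first MC26 library (0.0528) or without the first or the third M1B26 library (0.0748 and 0.118), in DESeq2 (0.0529) and when only these 6 libraries were fitted (0.0568). ALDH3A1 lies on chromosome 17, whose 843 tested genes had a median log2 difference of 0.48 in M1B26 against MC26 and 0.48 in M1B26 against CT, beside 0.00 in MC26 against CT. The part of that shift in the excess of ALDH3A1 over MC26 was not tested.

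ALDH3B1, a membrane-bound enzyme for lipid aldehydes, was highest in CT as well. It stood at 62.38, 53.2 and 67.08 in CT, 13.98, 19.93 and 25.11 in MC26, and 16.84, 16.76 and 14.07 CPM in M1B26. CT did not overlap with the derived lines, which overlapped each other. The log2 difference from CT was -1.63 in MC26 (3.10-fold lower, SE 0.18, adjusted p = 4.41e-05, edgeR) and -1.94 in M1B26 (3.85-fold lower, SE 0.18, adjusted p = 9.34e-06). M1B26 against MC26 gave -0.31 (95% interval -0.70 to 0.08, adjusted p = 0.186), which passed the threshold without the first MC26 library (-0.50, adjusted p = 0.0162) and with no filter (0.0400). ALDH3B2, its close paralog on the same chromosome, had 0, 2 and 32 counts in CT, 0 in each MC26 library, and 0, 0 and 1 in M1B26, so that its signal rested on 1 CT library. With no filter it was called lower in MC26 and in M1B26 than in CT (adjusted p = 4.92e-04 and 0.00121). The first CT library had 0 counts as MC26 did, so these calls do not show a difference shared by the CT libraries. The pair shares 152 of the 31-base words, and how such reads were assigned is not given in the sources used here.

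ALDH7A1, or antiquitin, an enzyme of lysine breakdown, had the smallest difference among the members called. It stood at 137.1, 149.1 and 132.3 in CT, 105.5, 114 and 131.2 in MC26, and 126.9, 130.4 and 128 CPM in M1B26. The CT libraries were highest, the third MC26 library coming within 2 CPM of the lowest of them. The log2 difference was -0.25 in MC26 against CT (SE 0.08, adjusted p = 0.0315, edgeR), -0.12 in M1B26 against CT (95% interval -0.30 to 0.06, adjusted p = 0.259) and 0.14 in M1B26 against MC26 (95% interval -0.05 to 0.32, adjusted p = 0.216). The call in MC26 was lost without the first or second library of either CT or MC26 (adjusted p 0.0720 to 0.132) and when only these 6 libraries were fitted (0.0611), and ALDH7A1 passed in M1B26 against MC26 without the third MC26 library (0.0378).

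Levels can be compared between genes only per length. With CPM divided by the length of merged exons in kilobases, the 9 genes summed to 86.06 ± 5.50 in CT, 50.71 ± 1.14 in MC26 and 79.98 ± 6.45 CPM per kilobase in M1B26 (SD, n = 3). CT and M1B26 overlapped, and all MC26 libraries lay below both. In CT the order was ALDH1B1 (30.35 CPM per kilobase) and ALDH3A1 (26.54), which overlapped each other, then ALDH1A3 (12.14), then ALDH3B1 (9.195) and ALDH7A1 (7.787), which overlapped as well. In MC26, ALDH1B1 (30.37) stood alone, followed by ALDH1A3 (7.68) and ALDH7A1 (6.525), which overlapped, and by ALDH3B1 (2.97) and ALDH3A1 (2.801), which did too. In M1B26 the order was ALDH1B1 (39.16) and ALDH1A3 (21.19), without overlap, and then ALDH7A1 (7.169), ALDH3A1 (5.682), ALDH1A1 (4.32) and ALDH3B1 (2.4), each of which overlapped with the next. The remaining genes were under 0.34 in each line. With the length of the longest transcript in place of merged exons, ALDH7A1 moved up in the order in CT and MC26, since its merged exons span 17914 bases and its longest transcript 4765, and ALDH3A1 (48.0) led in CT. In MC26, ALDH1B1 (31.26) was then followed more closely, by ALDH7A1 (24.53), and in M1B26 ALDH1B1 (40.32) and ALDH1A3 (32.58) overlapped.

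Shares of that sum show how the make-up differed between the lines. ALDH3A1 and ALDH3B1 made up 30.8% ± 1.85 and 10.7% ± 0.571 of the sum in CT, 5.49% ± 2.54 and 5.84% ± 1.53 in MC26, and 7.03% ± 2.07 and 3.02% ± 0.434 in M1B26. ALDH1B1 held 35.3% ± 1.06, 59.9% ± 2.69 and 49.1% ± 4.79, its own level being 30.35 CPM per kilobase in CT and 30.37 in MC26. These shares depend on the length used. With the longest transcript ALDH1B1 was 31.24, 31.26 and 40.31 beside sums of 137.6, 76.53 and 118.8, a smaller share in each line. The 3 retinal dehydrogenases summed to 12.15 ± 0.590 CPM per kilobase in CT, 8.044 ± 2.88 in MC26 and 25.56 ± 4.03 in M1B26. On that summed scale MC26 was lowest and M1B26 highest, with no overlap between lines.

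**Figure D2:**
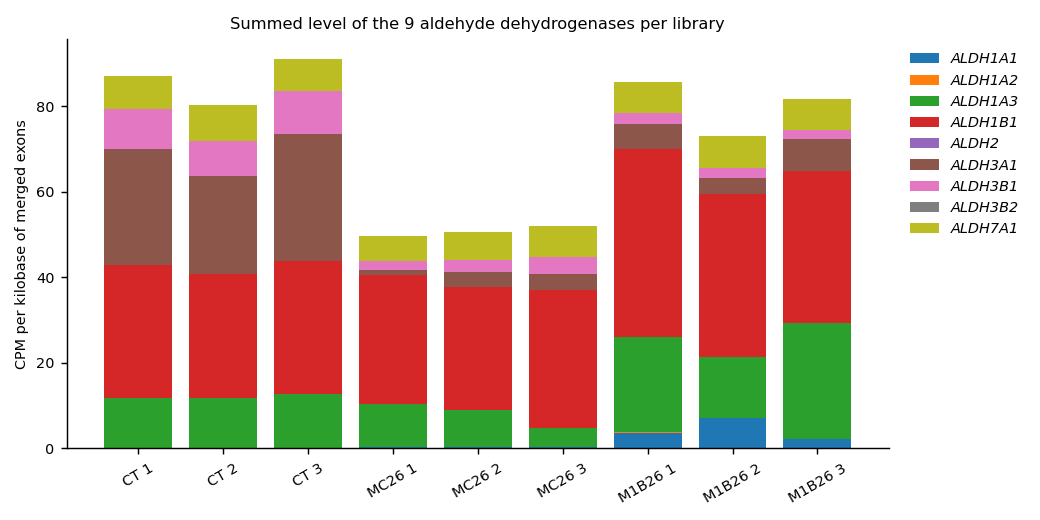
Level of the 9 aldehyde dehydrogenases stacked per library (vertical axis, CPM per kilobase of merged exons, from 0; colours mark genes). The bars reach 80.14 to 91.0 in CT, 49.7 to 51.94 in MC26 and 72.89 to 85.51 in M1B26, and the segments of ALDH3A1 and ALDH3B1 are largest in CT while those of ALDH1A1 are seen in M1B26.

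The other 10 genes of the ALDH superfamily serve folate, amino acid, lipid and aldehyde metabolism, and all 10 were tested. In MC26 against CT 1 was higher and 6 were lower, in M1B26 against CT 2 were higher and 5 lower, and in M1B26 against MC26 6 were higher and 1 lower, with median log2 differences of -0.75, -0.33 and 0.39. That is 7 of 10 called in each, beside 38.7%, 48.9% and 39.5% of all genes. ALDH1L1, the cytosolic formyltetrahydrofolate dehydrogenase, had 187, 45 and 183 counts in CT, 6, 8 and 18 in MC26, and 71, 60 and 75 in M1B26. It was lowest in MC26 with no overlap between lines, at log2 -3.12 against CT (SE 0.30, adjusted p = 1.90e-05, edgeR) and 2.47 in M1B26 against MC26 (SE 0.30, adjusted p = 1.45e-04). Its deficit in M1B26 against CT (-0.66, adjusted p = 0.0386) was lost in 6 of the 9 fits that left out a library. ALDH1L2, its mitochondrial counterpart, fell in both lines, at 76.66 ± 11.9 CPM in MC26 and 52.4 ± 5.17 in M1B26 beside 136.3 ± 8.57 in CT.

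Among the genes of amino acid and fatty aldehyde metabolism the lines did not share 1 order. ALDH5A1, the succinic semialdehyde dehydrogenase of GABA breakdown, was 13.67 ± 1.22 CPM in CT, lower in MC26 (8.492 ± 2.63, adjusted p = 0.0111, edgeR) and higher in M1B26 (20.39 ± 0.932, adjusted p = 0.0150). Without the third CT library its call in M1B26 against CT was lost (0.0544). ALDH6A1, of valine breakdown, was 16.03 ± 0.740 in CT, 6.006 ± 1.71 in MC26 and 8.907 ± 0.431 CPM in M1B26, with both derived lines lower than CT (adjusted p = 6.65e-05 and 0.00110). ALDH4A1, of proline breakdown, was 12.47 ± 1.39, 6.92 ± 1.05 and 9.647 ± 1.02 CPM, lower in MC26 (adjusted p = 6.00e-04) and in M1B26 (0.0326, lost in 5 of the 9 fits that left out a library).

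ALDH16A1, which lacks the catalytic cysteine of the family, was higher in both derived lines, at 80.62 ± 4.38 CPM in MC26 and 79.34 ± 3.06 in M1B26 beside 53.76 ± 10.8 in CT (adjusted p = 0.00306 and 0.00273, edgeR). ALDH18A1, of proline synthesis, was 153.2 ± 2.78 in CT, 130.8 ± 14.8 in MC26 and 126.5 ± 2.05 CPM in M1B26, with adjusted p = 0.0373 and 0.0124. Its call in MC26 was lost in 8 of the 9 fits that left out a library. ALDH3A2 and ALDH9A1, of fatty aldehyde and trimethylaminobutyraldehyde oxidation, were called in M1B26 against MC26, by 0.30 and 0.25 on the log2 scale (adjusted p = 0.00926 and 0.0142), and ALDH9A1 lost that call without the first MC26 library (0.0566). ALDH3A2 lies on chromosome 17 too, where the median difference in that comparison was 0.48. In MC26 against CT it missed the threshold (-0.20, adjusted p = 0.0548, edgeR) and passed it under 5 of 18 alternatives, among them DESeq2 (0.0436), total counts (0.0195) and only these 6 libraries (0.0463). ALDH8A1 stayed under 0.4 CPM in every library and was not called.

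**Figure D3:**
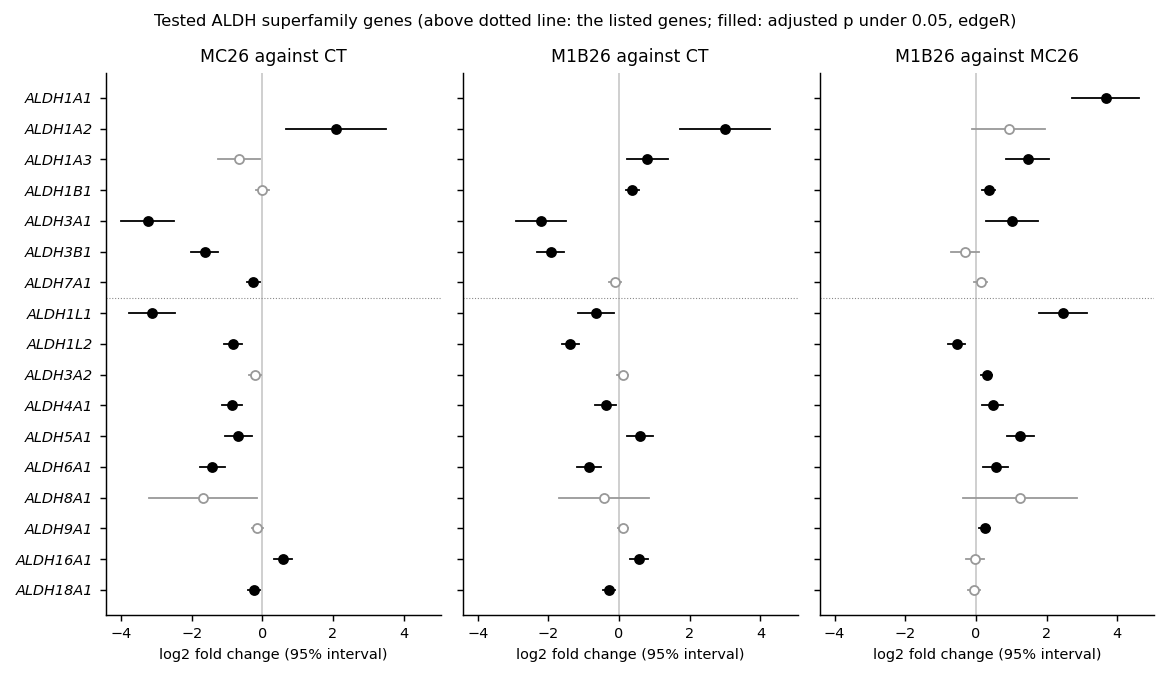
Log2 fold change (horizontal axis, points) with its 95% interval (lines) for the 7 listed genes tested (above the dotted line) and the 10 other ALDH genes (below) in the 3 comparisons, filled where the adjusted p was under 0.05. ALDH1A1 against CT is left out because CT had no count, the points of ALDH3A1 lie at -3.25 and -2.22 against CT, and ALDH1L1 lies at -3.12 in MC26 and 2.47 in M1B26 against MC26.

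Enzymes and carriers that supply or clear retinoids act before or after the step of the ALDH1A enzymes, and 15 of 21 were tested. In MC26 against CT 3 were higher and 4 lower (median log2 0.08), in M1B26 against CT 4 were higher and 4 lower (-0.04), and in M1B26 against MC26 3 were higher and 3 lower (0.09). The 7, 8 and 6 genes called of 15 are near the shares over all genes (38.7%, 48.9% and 39.5%). DHRS9, a retinol dehydrogenase, had 82, 36 and 104 counts in CT, 10, 13 and 11 in MC26 and 10, 8 and 15 in M1B26. It was 4.63-fold lower in MC26 (log2 -2.21, SE 0.25, adjusted p = 6.09e-05, edgeR) and 5.58-fold lower in M1B26 (-2.48, SE 0.25, adjusted p = 1.88e-05). LRAT, which esterifies retinol for storage, was 7.593 in CT, 4.129 in MC26 and 4.243 CPM in M1B26 on average, lower in both lines (adjusted p = 2.09e-04 and 1.71e-04). DHRS3, which reduces retinal back to retinol, was 13.14 CPM in CT and higher in MC26 (24.21, adjusted p = 0.0141) and M1B26 (31.21, adjusted p = 0.00142).

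The carriers CRABP2 and RBP4 differed between MC26 and M1B26, while FABP5, another carrier of retinoic acid, did not pass the threshold (135.5 CPM in MC26 and 146.9 in M1B26, adjusted p = 0.155, edgeR). CRABP2, which carries retinoic acid to the nucleus, stood at 2.072, 2.359 and 3.331 in CT, 3.904, 3.556 and 2.824 in MC26, and 6.312, 4.615 and 8.422 CPM in M1B26. M1B26 lay above all other libraries, by 1.30 over CT (SE 0.24, adjusted p = 0.00113, edgeR) and 0.92 over MC26 (SE 0.24, adjusted p = 0.0110) on the log2 scale. RBP4, the retinol carrier of blood, had 37, 18 and 79 counts in CT, 49, 47 and 64 in MC26 and 4, 5 and 8 in M1B26, 10.8-fold lower in M1B26 than in MC26 (log2 -3.43, SE 0.33, adjusted p = 2.80e-05). STRA6, the membrane receptor of RBP4, was 5.476 in CT, 2.354 in MC26 and 5.347 CPM in M1B26. Its deficit in MC26 against CT (adjusted p = 0.0207) was lost without the first or the third CT library or the first MC26 library, and its excess in M1B26 over MC26 (0.0236), with overlapping libraries, without the first MC26 or the third M1B26 library. CYP26B1, which degrades retinoic acid, was 17.59 in CT, 18.66 in MC26 and 13.03 CPM in M1B26, lower in M1B26 than in MC26 (adjusted p = 0.00270). CYP26A1 and CYP26C1 were too low to test. The other calls behind these counts, named after their values were seen, were FABP5 higher in MC26 and M1B26 than in CT (log2 0.49 and 0.61), RDH11 higher in M1B26 than in CT (0.26), RDH14 lower in MC26 than in CT and higher in M1B26 than in MC26 (-0.32 and 0.46), DHRS4 lower in M1B26 than in MC26 (-0.30), and, against CT, RBP4 higher in MC26 (0.79) and lower in M1B26 (-2.63) and CYP26B1 lower in M1B26 (-0.44).

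**Figure D4:**
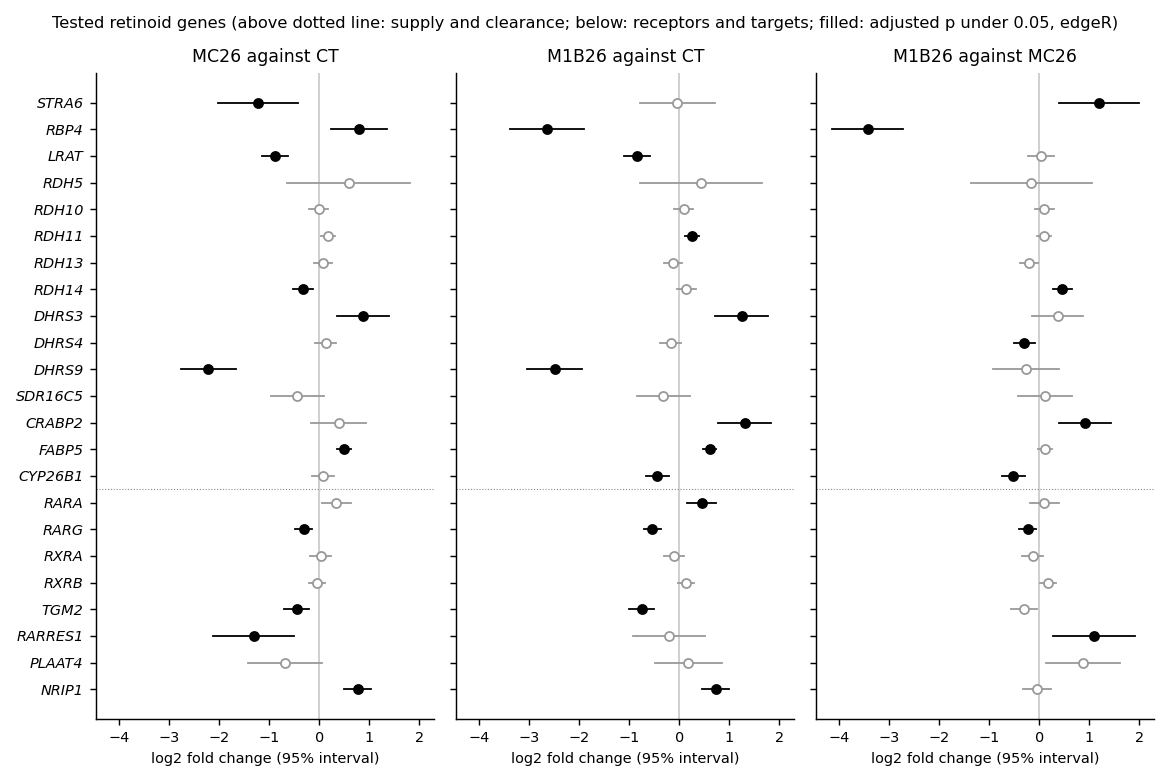
Log2 fold change (horizontal axis, points) with its 95% interval (lines) for the 15 tested genes of retinoid supply and clearance (above the dotted line) and the 8 tested receptors and targets (below) in the 3 comparisons, filled where the adjusted p was under 0.05. DHRS9 lies at -2.21 and -2.48 against CT, CRABP2 at 1.30 in M1B26 against CT, and RBP4 at -3.43 in M1B26 against MC26.

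Receptors of retinoic acid and genes known to respond to it were called in both directions, with 8 of 10 tested. In MC26 against CT 1 was higher and 3 lower (median log2 -0.18), in M1B26 against CT 2 were higher and 2 lower (0.01), and in M1B26 against MC26 1 was higher and 1 lower (0.03). The 4, 4 and 2 genes called of 8 stand beside the same shares over all genes (38.7%, 48.9% and 39.5%). RARG, the retinoic acid receptor of epithelia, was 68.57 in CT, 55.4 in MC26 and 47.23 CPM in M1B26, lower in both lines than in CT (log2 -0.31 and -0.54, adjusted p = 0.00915 and 2.24e-04, edgeR). Its difference of -0.23 between M1B26 and MC26 (adjusted p = 0.0371) was lost in 7 of the 9 fits that left out a library. RARA was higher in M1B26 than in CT (23.75 beside 17.23 CPM, adjusted p = 0.0143), a call lost without the first M1B26 library (0.0659), and it lies on chromosome 17, whose median difference from CT in M1B26 was 0.48. TGM2, a transglutaminase induced by retinoic acid in many cells, was 25.2 in CT, 18.52 in MC26 and 15.06 CPM in M1B26, lower in both (adjusted p = 0.009995 and 3.50e-04). NRIP1, a nuclear receptor corepressor, was 24.86 CPM in CT and higher in MC26 (42.25, adjusted p = 7.56e-04) and M1B26 (40.92, adjusted p = 7.22e-04). The gene called higher in M1B26 against MC26 was RARRES1, a retinoic acid response gene named after its values were seen, with 49, 23 and 54 counts in CT, 10, 6 and 21 in MC26, and 26, 24 and 43 in M1B26. Its level was lower in MC26 than in CT (log2 -1.31, adjusted p = 0.0160, edgeR), and M1B26 exceeded MC26 by 1.1 on the log2 scale (adjusted p = 0.0360). RARB, a direct target of retinoic acid, was too low to test.

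Alcohol dehydrogenases, aldehyde reductases and related enzymes also act on aldehydes or alcohols, and 10 of 14 were tested. In MC26 against CT 2 were higher and 4 lower (median log2 -0.07), in M1B26 against CT 5 were higher and 4 lower (0.10), and in M1B26 against MC26 5 were higher and 2 lower (0.43), or 6, 9 and 7 of 10 beside 38.7%, 48.9% and 39.5% of all genes. ADH1B, a class I alcohol dehydrogenase, had 86, 29 and 95 counts in CT, 0 in each MC26 library and 1, 0 and 1 in M1B26. From a limit of 3 counts per library its mean was at least 16.3-fold lower in MC26 (adjusted p = 1.04e-05 for the fitted difference, edgeR). ADH1B was called lower in M1B26 too (adjusted p = 7.87e-06), though near-identical class I genes could share its reads. ADH1B passed the filter through CT alone, so it could enter the test only by being higher there. AKR1B10, an aldo-keto reductase that reduces retinal and is nearly identical to AKR1B15, was 2.286 in CT, 1.028 in MC26 and 0.3948 CPM in M1B26, with each step called (adjusted p 2.14e-05 to 0.00293).

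The more abundant enzymes of that group changed by less. ADH5, the formaldehyde-clearing class III enzyme, was 140.5 in CT, 147.3 in MC26 and 228.3 CPM in M1B26, higher in M1B26 than in CT (log2 0.70, SE 0.06, adjusted p = 6.85e-06, edgeR) and than in MC26 (0.63, SE 0.06, adjusted p = 3.07e-05). AKR1B1, or aldose reductase, was 280.3 in CT, 175.9 in MC26 and 181.1 CPM in M1B26 (adjusted p = 4.27e-04 in MC26 against CT). AOX1, an aldehyde oxidase, was 26.56 CPM in CT and higher in MC26 (47.31, adjusted p = 1.38e-04) and M1B26 (43.75, adjusted p = 2.37e-04). In M1B26 against MC26, CBR1, a carbonyl reductase, was lower (61.8 beside 90.42 CPM, adjusted p = 0.00182) and AKR1A1, aldehyde reductase, was higher (74.31 beside 52.8 CPM, adjusted p = 9.74e-04). Also behind these counts, and named after their values were seen, were ADH4 (0.02815 in CT, 0.09068 in MC26 and 0.2662 CPM in M1B26, called in each comparison, having passed the filter through M1B26 alone, where it was highest), AKR7A2 (higher in M1B26 than in CT and MC26, log2 0.30 and 0.37) and CBR3 (lower in MC26 than in CT and higher in M1B26 than in MC26, -0.59 and 0.49). In M1B26 against CT, AKR1A1 was higher (0.43) and AKR1B1 (-0.63) and CBR1 (-0.36) were lower.

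Genes with the most similar pattern were sought for the members with the widest range between lines among those of at least 5 CPM, ALDH3A1 and ALDH3B1. Likeness was the mean absolute difference of centred log2 CPM over the 9 libraries, among 10637 genes of at least 5 CPM on average. Nearest to ALDH3A1 were KRT80, an epithelial keratin (0.275), ARRB1, a beta-arrestin (0.317), and MFSD6 (0.360), and nearest to ALDH3B1 were FNDC10 (0.121), JPH2, a junctophilin (0.147), and MIR1915HG (0.156), all as log2 differences. KRT80 averaged 51.88 in CT, 5.375 in MC26 and 8.088 CPM in M1B26, and FNDC10 24.13, 8.607 and 6.563. The values share the 9 libraries and describe likeness over these lines alone.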

How the data were processed

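Total RNA was extracted with the RNeasy kit and poly-A libraries were sequenced in paired-end mode on a NovaSeq6000, as the study's methods state. Alignment by the authors used STAR 2.7.3a with GRCh38 and GENCODE v33, and they also name Salmon 1.1.0 on protein-coding genes (versions per the submitters' processing notes). The deposited table held whole-number raw counts per symbol, coding and noncoding, for the 9 libraries. Which tool counted, the strand setting and the handling of multimapping reads are not given in the sources used here. Library batches were not labelled, so a batch that followed the line cannot be told apart from it.

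From these counts, CPM were computed with TMM scaling. A single edgeR 4.0.16 quasi-likelihood model (R 4.3.3, limma 3.58.1) held all 9 libraries by line with no covariate, after filterByExpr with a minimum count of 10. SEs are the log2 fold change over the root of F. A gene passed with 0.229 CPM or more in at least 3 libraries. The biological coefficient of variation was 10.37%. Tests are two-sided. The step was tested on simulated counts for MC26 against CT, with a spread common to all genes and changes placed only in genes of at least 5 CPM. That does not cover genes near the limit of detection or with no count in a line. Alternatives were RLE factors, total counts, other filters, DESeq2 1.42.0, pairs of lines fitted alone, a replicate block, stricter thresholds and leaving out each library. Intervals and limits of detection cover counting error or the spread between cultures as stated, not molecules lost before sequencing.

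Gene lengths and overlaps came from GENCODE v44 on GRCh38, a later release than the authors used, in which 36923 of the 60199 symbols matched 1 gene. Shared 31-base words were sought over its transcripts. The 9 genes and the other lists were chosen with earlier results of these data known. All ALDH genes were named whatever their values. Genes of the retinoid, receptor and alcohol dehydrogenase lists were named where called, up to 4 per list and comparison by size of change, at 1 CPM or more in either line. Promoters were shown for the 4 members with the largest changes among those called in at least 2 comparisons, as far as the table had them and outside exons. ALDH1A3, outside these 4, was added as a contrast. The values of 1 marker gene are not reported here. Figures were drawn with matplotlib 3.10.9.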

Additional observations from a re-analysis of the deposited data

Results flagged for a closer look

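Of the 7 aldehyde dehydrogenases tested 4 differed between the derived lines when these were tested directly against each other in edgeR, which is the test of whether their differences from the shared CT libraries are unequal. Of all genes tested 39.5% differed in that comparison. The log2 difference of M1B26 from MC26 was 3.672 for ALDH1A1, 1.466 for ALDH1A3, 0.3668 for ALDH1B1 and 1.024 for ALDH3A1. ALDH1A1 and ALDH1A3 did not overlap between these lines and ALDH3A1 did. ALDH1A3 was above CT in M1B26 and below it in MC26, the latter short of the threshold, while ALDH3A1 was below CT in both. No group was screened for a library that stands apart, since each held 3.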

How the results depend on the processing

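Of 374 values of the 7 tested genes under 18 alternatives, 334 kept their direction and side of the threshold, among them every value of ALDH1A1 and, against CT, of ALDH3A1 and ALDH3B1. Part of this was fixed in advance. CT had no ALDH1A1 count, so that direction against CT could not turn, and the threshold of 0.01 on the same fit could not add a call. The sign of ALDH1B1 in MC26 against CT turned with total counts (-0.07684), a mean of at least 50 counts (-0.01335) and only the 6 libraries compared (-0.004381), and leaving out 1 library gave -0.04502 to 0.0439. Leaving out 1 library also turned ALDH8A1 in M1B26 against CT (-1.525 to 0.04958) and, in M1B26 against MC26, ALDH16A1 (-0.05595 to 0.02202) and ALDH18A1 (-0.09426 to 0.04941), all uncalled. Genes called in MC26 against CT were 6081, 3698 at an adjusted p under 0.01 and 1463 by glmTreat at 1.5-fold. In M1B26 against CT glmTreat gave 1725 in place of 7688, and in M1B26 against MC26 the counts were 6215, 3685 and 964. Aldehyde dehydrogenases called in MC26 against CT went from 5 to 3 with only the 6 libraries compared, at 0.01 and by glmTreat, and to 3 to 5 when 1 library was left out. In M1B26 against CT they went from 6 to 5 at 0.01, to 4 by glmTreat and to 5 or 6 when 1 library was left out. In M1B26 against MC26 they went from 4 to 2 by glmTreat and to 3 to 6 when 1 library was left out, the 6 being without the third MC26 library. With total counts 6 were called in MC26 against CT, and with no filter 7, 7 and 5 in the order above, ALDH3B2 included in the comparisons with CT. The cause was not tested. With 2 cultures left in a line, the spread was pooled over all lines.

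Replicate numbers were shared by the lines with no label saying that they pair cultures. Deviations of same-numbered libraries correlated at -0.114 to 0.137, over 0.1 in 2 of 9 pairs, and 2 of the 9 libraries correlated best with their own number in both other lines. With the replicate block, 5879, 7513 and 6009 genes were called and 5, 6 and 4 aldehyde dehydrogenases. ALDH1L1 and ALDH4A1 in M1B26 against CT lost their calls (0.0605 and 0.0536), as did RARG in M1B26 against MC26 (0.0543). Depth limits ALDH1A2, ALDH2 and ALDH3B2, where 1 count was worth 0.0122 to 0.0437 CPM. Levels per kilobase moved with the length used, the sum of the 9 genes being 137.6, 76.53 and 118.8 with the longest transcript.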
